A study of Homo sapiens with 4 samples.

Results

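The genes described here are 30 genes of the NRF2 antioxidant program and of thiol redox metabolism, chosen by name from a deposited table of 34826 genes. All 30 were found, each on a single row, and 26 of them passed the filter of at least 1 TPM in at least 2 libraries, leaving out GPX2, AKR1B10, AKR1C1 and AKR1C2. TPM are reads per gene corrected for gene length and scaled to the same sum in each library. RNA came from HCT116-Ki-67-mAC-AID cells, a human colorectal cancer line whose Ki-67 carries a degron tag. Ki-67 is a nuclear protein found in cycling cells. Auxin-type degrons mark a tagged protein for destruction when an auxin is added. Both groups carried the tag and were grown for 2 days, the 2 control samples without treatment and the 2 IAA samples with indole acetic acid, an auxin, at 0.5 mM for 24 h. Each sample was collected from 3 dishes, and the labels do not say whether the line is a single clone or whether samples with the same number were grown on the same day. No untagged cells given IAA were among the samples, so effects of IAA itself and of Ki-67 loss cannot be told apart.

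NRF2, encoded by NFE2L2, is a transcription factor that is held in the cytoplasm and passed to the proteasome by KEAP1. When cysteines of KEAP1 are modified by oxidants or electrophiles, NRF2 accumulates, pairs with small MAF proteins and binds antioxidant response elements near genes that make glutathione, reduce thioredoxin, supply NADPH, detoxify quinones and carbonyls, export conjugates and store iron. Control of NRF2 is largely at the level of the protein, which RNA does not show, and NFE2L2 and NQO1 are also known targets of the aryl hydrocarbon receptor.

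The core of the antioxidant response element, TGACNNNGC, was searched on both strands of promoter windows from RefSeq (GRCh38.p14), which run from 250 bases before to 50 bases after each start. The windows covered 22 of the 30 genes in 28 entries, and ABCC1, ABCC3, AKR1B10, FTH1, GSR, GSS, HMOX1 and PRDX1 had no entry. A match was found in 9 of these 28 entries (32.1%), against 13.3% of 35116 entries over all genes. By gene, 8 of 22 had a match (36.4%, against 16.1% of 27305 symbols), namely GCLM, GPX2, GSTP1, KEAP1, ME1, PGD, PIR and TXNRD1. Stretches of 29 bases around matches are given to show the letters that were searched. They are written 5′ to 3′ on the strand of the gene, with the match in capitals, and a match that begins with GC is the motif on the other strand.

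ME1 (chr6:83431170-83431198, minus strand): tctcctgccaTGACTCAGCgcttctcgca
GSTP1 (chr11:67583736-67583764, plus strand): gccggcgccgTGACTCAGCactggggcgg
TXNRD1, upstream start (chr12:104215670-104215698, plus strand): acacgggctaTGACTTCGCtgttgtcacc
TXNRD1, downstream start (chr12:104286920-104286948, plus strand): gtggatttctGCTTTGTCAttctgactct
GCLM (chr1:93909446-93909474, minus strand): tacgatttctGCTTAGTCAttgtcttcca
GPX2 (chr14:64942849-64942877, minus strand): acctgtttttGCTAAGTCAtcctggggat
KEAP1 (chr19:10502784-10502812, minus strand): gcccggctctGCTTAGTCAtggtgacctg

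ME1 and GSTP1 hold the same 9 letters on the forward strand, and GCLM and KEAP1 hold the same 9 letters on the reverse strand. A match is a description of the letters and not a site of binding. NQO1, NFE2L2, OSGIN1 and SRXN1 had an entry without a match, which says only that these letters are not in this window.

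The 4 libraries held between 38733981 and 49448043 reads, recovered from TPM and gene length, and every gene value was a whole number of reads within a tolerance of 1e-06. Of 8 epithelial markers, 5 were expressed, with EPCAM between 466 and 480.0 TPM and KRT19 between 1595 and 1802 TPM, while the intestinal genes CDH17, LGALS4 and VIL1 were at most 0.487 TPM in any library. Markers of blood cells, endothelium and hepatocytes summed to at most 1.02, 0.703 and 0.943 TPM in any library. Those of fibroblasts summed to between 13.7 and 15.2 TPM, with 1 of 5 genes (COL1A1) at a mean of 1 TPM or more, and those of neurons to between 59.96 and 68.0 TPM, with 1 of 3 (SYT1). Markers of squamous epithelium summed to 32.4 TPM in IAA replicate 1 and to between 4.62 and 5.65 TPM in the other libraries, and the part of this in the values below was not tested. Across all 17896 genes tested with limma, 0 (0%) passed the adjusted threshold of 0.05, and 0 of the 26 measured genes of the program did. At an unadjusted p under 0.05, 4 of the 26 were higher in IAA and 0 were lower, against 1.54% higher and 2.61% lower of all genes tested. The genes were chosen with earlier results of these data known, so these shares and those below describe the list and do not test it.

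The 4 genes under that unadjusted threshold were NQO1, FTH1, NFE2L2 and OSGIN1. Their mean TPM was between 16.95% and 26.3% higher in IAA, and none passed after adjustment. For 6 of the 26 genes the IAA libraries were both above the 2 controls, these 4 together with AKR1C3 and PIR, against 11.8% of all genes tested. Both lay below for 1, GSS, against 17.7%. The median log2 fold change of the 26 genes was 0.02, with a range from -0.22 to 0.31, and that of all genes tested was -0.02. The replicate spread of the median of the 26 genes was 0.033 (SD), larger than that median. Fold changes were positive for 17 of the 26, against 44.5% of all genes. Fold changes are on the log2(TPM + 1) scale, where low genes appear to change less than they do. Only those under alternatives with another pseudocount, scaling or limma voom on the reads, given at the end, are on other scales. In bulk RNA a higher level per cell and a larger share of cells with a high level cannot be told apart.

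**Figure D1:**
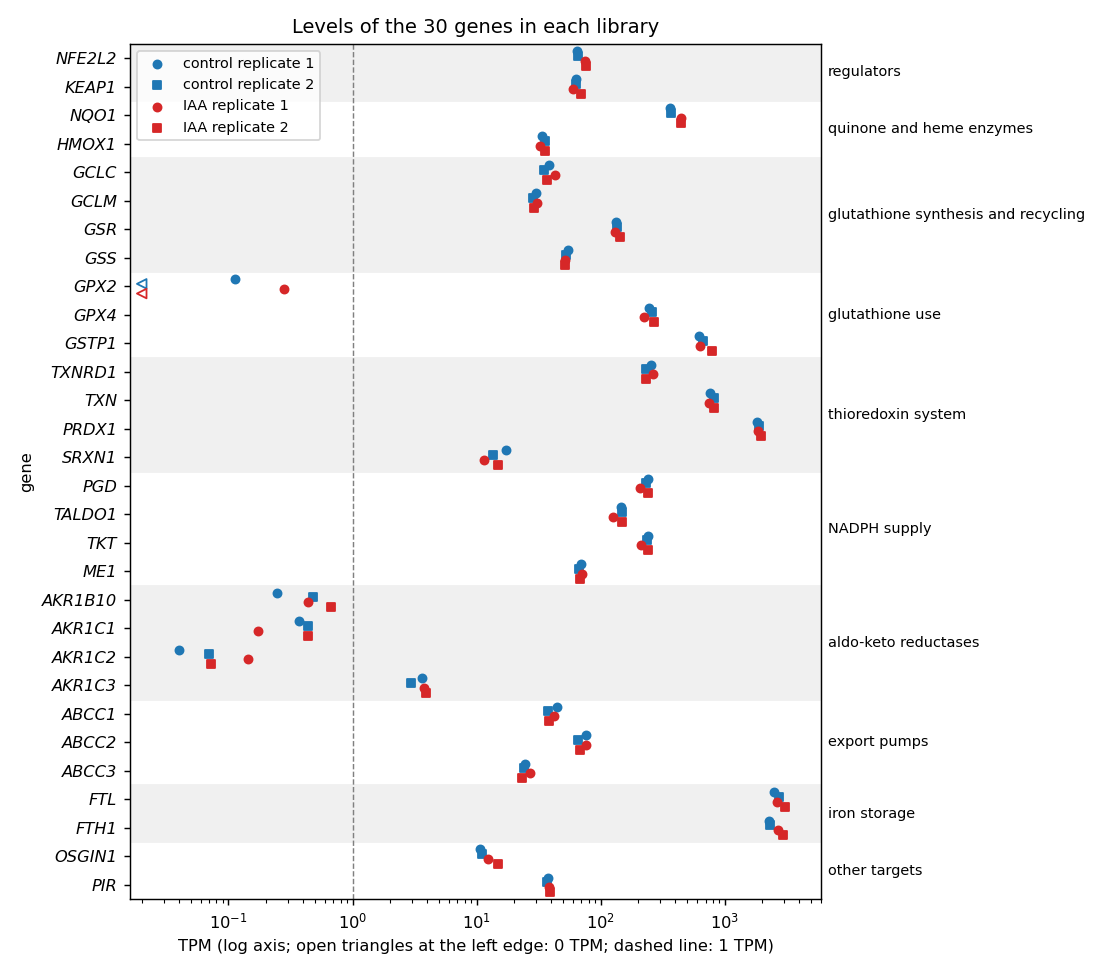
TPM (log axis) of the 30 genes, grouped by role, in control replicates (blue) and IAA replicates (red), with circles for replicate 1 and squares for replicate 2. Levels run from 0 TPM for GPX2 in 2 libraries to 3084 TPM for FTL in IAA replicate 2, and the 4 genes left of the dashed line at 1 TPM were not tested.

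Of the regulators, NFE2L2 (ENSG00000116044.15, GRCh38 chromosome 2, 177227595 to 177392697, minus strand) was measured at 64.7 and 65.3 TPM in controls 1 and 2, against 75.3 and 76.7 TPM with IAA. The IAA pair lay 10.03 TPM above the higher control, while replicates within either group were at most 1.40 TPM apart. Group means were 65.0 ± 0.41 and 76.0 ± 0.99 TPM (SD, n = 2), a log2 fold change of 0.22 (SE 0.07, 95% interval 0.05 to 0.40, limma adjusted p = 0.999). KEAP1 (ENSG00000079999.13, chromosome 19, 10486120 to 10503741, minus strand), the adaptor that targets NRF2 for degradation, stood at 63.5 and 63.1 TPM in controls versus 59.5 and 69.4 TPM with IAA. IAA replicate 1 was the lowest and IAA replicate 2 the highest of the 4, so the groups overlapped. Its log2 fold change was 0.02 (95% interval -0.21 to 0.26, limma adjusted p = 0.999), and -0.09 without IAA replicate 2. Within each library the ratio of NFE2L2 to KEAP1 TPM was 1.02 and 1.03 in controls versus 1.27 and 1.11 with IAA, where it was higher in both. Of the 5979 exonic bases of NFE2L2, 54 are shared with AGPS, 1054 with AC019080.1 and 190 with the antisense gene AC079305.1. AC019080.1 held 167 to 236 reads per library and AC079305.1 held 63 to 101, against 4538 to 6057 on NFE2L2.

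NQO1 and HMOX1 are textbook NRF2 targets of quinone reduction and heme breakdown. NQO1 (ENSG00000181019.12, chromosome 16, 69706996 to 69726951, minus strand), a quinone reductase that uses NADH or NADPH, was at 363 and 371 TPM in controls versus 441 and 447 TPM with IAA. The groups were 70.4 TPM apart at their nearest, and replicates differed by at most 7.72 TPM. Its log2 fold change was 0.28 (SE 0.06, 95% interval 0.12 to 0.43), the smallest p among the 26 genes (limma adjusted p = 0.841). The value was 0.28 between the libraries numbered 1 and 0.27 between those numbered 2. An antisense gene, AC092115.2, shares 575 of the 3254 exonic bases of NQO1 and held 16 to 84 reads, against 13858 to 18722 on NQO1. HMOX1, heme oxygenase 1, was at 33.7 and 35.2 TPM in controls versus 32.4 and 35.6 TPM with IAA. The IAA libraries lay on either side of both controls, and the log2 fold change was -0.02 (95% interval -0.24 to 0.20, limma adjusted p = 0.999).

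Iron storage genes were the most abundant of the set. FTH1 and FTL, the heavy and light chains of ferritin, together made up 0.477% and 0.507% of all TPM in controls versus 0.533% and 0.604% with IAA. FTH1 (ENSG00000167996.15, chromosome 11, 61959718 to 61967660, minus strand) was at 2277 and 2323 TPM in controls versus 2684 and 2957 TPM with IAA, without overlap. Its mean was 2299.7 ± 32.5 TPM without and 2821 ± 193 TPM with IAA (SD, n = 2), and the log2 fold change was 0.29 (SE 0.08, 95% interval 0.10 to 0.49, limma adjusted p = 0.901). Without IAA replicate 1 it passed the threshold, at 0.36 (limma adjusted p = 0.00261), in a fit where the single IAA library takes its spread from the controls and 0.402% of all genes were called higher. FTL (ENSG00000087086.14, chromosome 19, 48965301 to 48966878, plus strand) had 2498 and 2751 TPM without IAA and 2642 and 3084 TPM with it. IAA replicate 1 lay between the controls, so the groups overlapped, and the log2 fold change was 0.12 (SE 0.10, limma adjusted p = 0.999). FTL was at 0.01 relative to the control mean in IAA replicate 1 alone and at 0.23 in IAA replicate 2 alone, on the log2(TPM + 1) scale. Within each library the ratio of FTH1 to FTL TPM was 0.911 and 0.844 in controls versus 1.02 and 0.959 with IAA.

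Ferritin genes have many processed copies in the genome that can share reads with them. The table held 16 FTH1 and 4 FTL pseudogene rows. These took 0.122% to 0.342% of the reads of FTH1 and its copies and 0.0950% to 0.243% of those of FTL and its copies, with the highest share in IAA replicate 1 for both. The last exons of BEST1, on the opposite strand, share 1267 of the 2030 exonic bases of FTH1. BEST1 had 2026 and 2581 reads in controls versus 3514 and 2652 with IAA, against 54198 to 76967 on FTH1. Use of strand in counting is not given in the sources used here, so reads of the shared bases cannot be told apart.

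OSGIN1 and PIR, grouped as other targets, were both higher in each IAA library than in each control. OSGIN1 (ENSG00000140961.12, chromosome 16, 83948282 to 83966332, plus strand), an oxidative stress-induced growth inhibitor, was at 10.6 and 11.01 TPM in controls versus 12.5 and 14.8 TPM with IAA, on 429 to 657 reads. Its log2 fold change was 0.31 (SE 0.12, 95% interval 0.01 to 0.60, limma adjusted p = 0.999), the highest of the 26. It was 0.19 without IAA replicate 2 and 0.42 without IAA replicate 1. Of the 3460 exonic bases of OSGIN1, 481 are shared with AC009119.2 on the same strand, which held 18 to 20 reads per library. PIR, which encodes the iron-binding nuclear protein pirin, was at 37.3 TPM in both controls versus 38.6 and 39.3 TPM with IAA. The groups were 1.29 TPM apart, a log2 fold change of 0.06 (95% interval -0.13 to 0.25, limma adjusted p = 0.999).

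**Figure D2:**
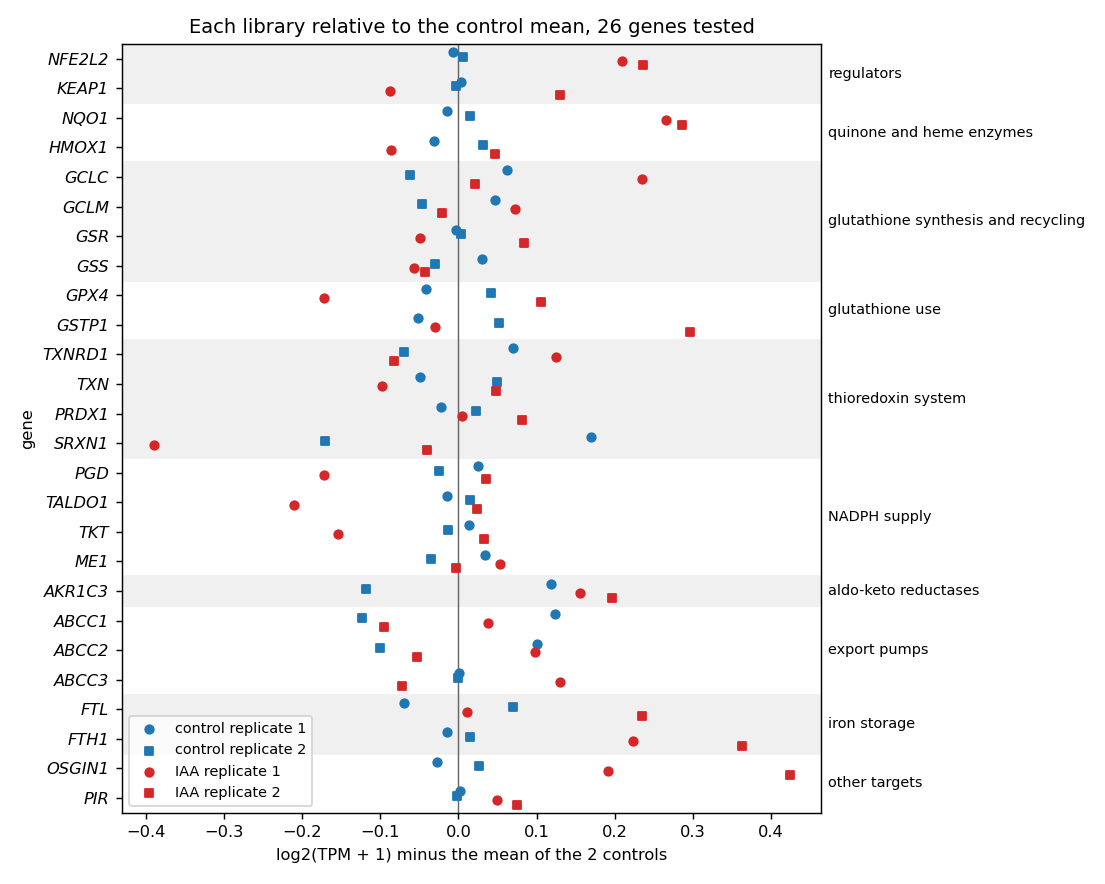
Each library's log2(TPM + 1) minus the mean of the 2 controls for the 26 genes tested, with controls in blue, IAA in red, circles for replicate 1 and squares for replicate 2. Both red points of NFE2L2, NQO1, FTH1 and OSGIN1 stand to the right of both blue points, while those of KEAP1, TALDO1 and GPX4 lie on either side of zero.

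Glutathione synthesis and recycling genes lay near their control levels. GCLC, the catalytic subunit of glutamate-cysteine ligase and the rate-limiting step of glutathione synthesis, was at 38.1 and 34.9 TPM in controls versus 43.1 and 37.0 TPM with IAA. IAA replicate 2 lay between the controls, and the log2 fold change was 0.13 (SE 0.11, 95% interval -0.13 to 0.39, limma adjusted p = 0.999). It was 0.02 without IAA replicate 1 and 0.23 without IAA replicate 2. AL033397.1, on the same strand, shares 529 of the 8646 exonic bases of GCLC and held 3 to 10 reads per library. GCLM, the modifier subunit of the same ligase, was at 30.3 and 28.3 TPM in controls versus 30.8 and 28.8 TPM with IAA, a log2 fold change of 0.03 (95% interval -0.19 to 0.25). Replicate 1 was the higher in both groups for GCLC and for GCLM. GSS, glutathione synthetase, was at 54.7 and 52.4 TPM in controls versus 51.4 and 51.9 TPM with IAA. The IAA pair lay below both controls by 0.490 TPM, less than the 2.25 TPM between the controls, and the log2 fold change was -0.05 (SE 0.08, limma adjusted p = 0.999). GSR, glutathione reductase, which returns oxidised glutathione to its thiol form, was at 134 TPM in both controls versus 129 and 142 TPM with IAA, on either side of them.

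Genes that use glutathione differed between the IAA replicates. GSTP1, the pi class glutathione transferase, was at 617 and 662 TPM in controls versus 626 and 785 TPM with IAA. IAA replicate 1 lay between the controls and IAA replicate 2 above both. The log2 fold change was 0.13 (SE 0.12, 95% interval -0.16 to 0.42, limma adjusted p = 0.999). It was 0.30 and past the threshold without IAA replicate 1 (limma adjusted p = 0.0397), in the same fit with a single IAA library that called 0.402% of all genes higher, and -0.03 without IAA replicate 2. GPX4, the selenoenzyme that reduces lipid hydroperoxides and restrains ferroptosis, was at 243 and 258 TPM in controls versus 222 and 269 TPM with IAA, the lowest and the highest of the 4. GPX2, the gastrointestinal glutathione peroxidase, was near the limit of detection, with 2 and 0 reads in controls versus 5 and 0 with IAA. A count of 0 allows up to 3 reads, which is 0.129 TPM in control replicate 2 and 0.156 TPM in IAA replicate 2.

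Thioredoxin system genes overlapped between the groups in all 4 cases. PRDX1, a peroxiredoxin that reduces peroxides with electrons from thioredoxin, was at 1821 and 1877 TPM in controls versus 1854 and 1956 TPM with IAA. TXN, thioredoxin itself, was at 766 and 821 TPM in controls versus 741 and 819.7 TPM with IAA. TXNRD1, the NADPH-dependent thioredoxin reductase, was at 256 and 233 TPM in controls versus 266 and 231 TPM with IAA, so that replicate 1 was the higher in both groups. The log2 fold changes of these 3 were 0.04, -0.02 and 0.02. MMACHC, on the opposite strand, shares 379 of the 1522 exonic bases of PRDX1 and held 874 to 1218 reads, against 32496 to 44315 on PRDX1. SRXN1, the sulfiredoxin that repairs overoxidised peroxiredoxins, had the lowest fold change of the 26. Its values were 17.4 and 13.5 TPM in controls versus 11.4 and 14.9 TPM with IAA, on 367 to 565 reads. The log2 fold change was -0.22 (SE 0.17, 95% interval -0.63 to 0.20, limma adjusted p = 0.999), and was -0.05 and -0.04 without control or IAA replicate 1, and -0.39 in both cases without control or IAA replicate 2. Of the 2698 exonic bases of SRXN1, 2292 are shared with AL121758.1 on the same strand, which had 0 reads in every library, so the level of SRXN1 is uncertain.

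Of the 4 NADPH supply genes, 3 were lowest in IAA replicate 1. PGD and TALDO1, enzymes of the pentose phosphate pathway, were at 239 and 231 TPM and at 145 and 147 TPM in the controls. With IAA they were at 209 and 241 TPM and at 126 and 148 TPM. TKT, transketolase of the same pathway, was at 239 and 235 TPM in controls versus 213 and 243 TPM with IAA. For these 3 genes IAA replicate 1 was the lowest library and IAA replicate 2 the highest. Their log2 fold changes were -0.07, -0.09 and -0.06 with standard errors of 0.09, 0.10 and 0.08 (limma adjusted p = 0.999 for each), and 0.04, 0.02 and 0.03 without IAA replicate 1. ME1, cytosolic malic enzyme, was at 70.0 and 66.7 TPM in controls versus 70.9 and 68.2 TPM with IAA. Among all 26 genes, 7 had IAA replicate 1 below and IAA replicate 2 above both controls (KEAP1, HMOX1, GSR, GPX4, PGD, TALDO1 and TKT), against 8.64% of all genes tested. The reverse held for 2 of the 26 (TXNRD1 and ABCC3) and for 2618 of the 17896 genes tested, where it was the more frequent of these patterns.

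Aldo-keto reductases, which reduce carbonyls and are among the most inducible NRF2 targets in human cells, were low or near the limit of detection. AKR1C3 was at 3.65 and 2.94 TPM in controls versus 3.77 and 3.91 TPM with IAA, on 194 to 227 reads, without overlap. The groups were 0.120 TPM apart at their nearest, less than the 0.706 TPM between the controls. Its log2 fold change was 0.18 (95% interval -0.23 to 0.58, limma adjusted p = 0.999). AKR1C1 had 38 and 59 reads in controls versus 18 and 49 with IAA, which are 0.370 and 0.434 TPM versus 0.173 and 0.436 TPM, so IAA replicate 1 alone lay below the controls. Summed, it had 97 control reads (95% exact Poisson interval 78.7 to 118) and 67 IAA reads (51.9 to 85.1), of totals of 88401209 and 79654835 reads. AKR1C2 had 3 and 7 reads in controls versus 11 and 6 with IAA, and AKR1B10 had 5 and 13 versus 9 and 15. The intervals cover counting error only. AKR1C1, AKR1C2 and AKR1C3 are close paralogs whose reads can be split by counting, and together they had 235 and 273 reads in controls versus 232 and 282 with IAA.

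Export pump genes overlapped between the groups. ABCC1, ABCC2 and ABCC3 encode multidrug resistance proteins that export glutathione and glucuronide conjugates. ABCC1 was at 44.6 and 37.4 TPM in controls versus 42.0 and 38.2 TPM with IAA, and ABCC2 was at 76.0 and 66.0 TPM and at 75.9 and 68.3 TPM. Replicate 1 was the higher of each pair for both genes. ABCC3 was at 24.3 TPM in both controls versus 26.7 and 23.1 TPM with IAA, above and below them. The log2 fold changes of the 3 were -0.03, 0.02 and 0.03, and their 95% intervals together ran from -0.30 to 0.28.

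**Figure D3:**
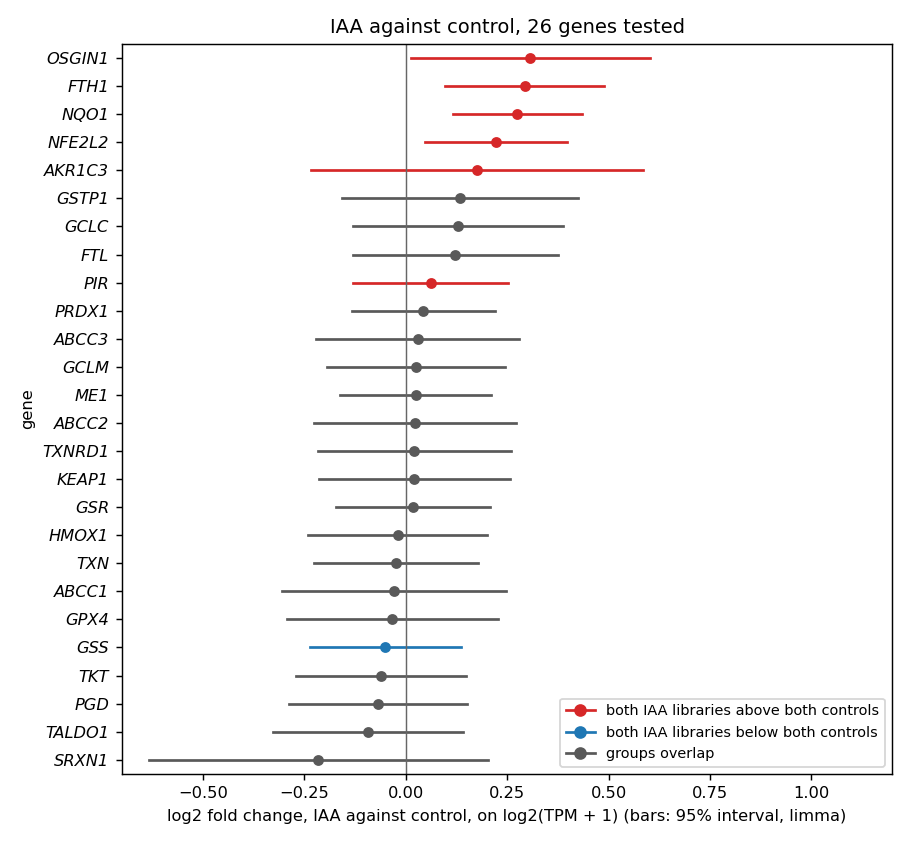
Log2 fold change of IAA against control with its 95% interval (limma on log2(TPM + 1)) for the 26 genes tested, in order of size. Intervals of OSGIN1, FTH1, NQO1 and NFE2L2 do not include zero before adjustment, and red and blue mark the 6 genes above and the 1 gene below both controls in both IAA libraries.

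Among the genes of the program, replicates differed in a way that followed gene length, more than over all genes. Across the 26 genes, which share their libraries and are not independent, the difference between control replicates 1 and 2 had a Spearman correlation of 0.68 with gene length, and that between IAA replicates 1 and 2 had 0.65. Over all 17896 genes tested these values were 0.23 and 0.08. The difference between IAA and control had -0.05 across the 26 genes. All 10 genes under 3000 bases had lower values in IAA replicate 1 than in IAA replicate 2, with a median log2 difference of -0.18, against -0.02 for the 16 longer genes. The limit of 3000 bases was not part of the planned design. FTL, FTH1, PRDX1, TXN and GSTP1, the most abundant of the 26, are all under it, so length and level are mixed in these genes. With the length trend of each library removed, an alternative chosen after the data were seen, the log2 fold changes of NQO1, FTH1, NFE2L2 and OSGIN1 were 0.29, 0.31, 0.24 and 0.32, and 0 of the 26 genes passed the threshold.

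**Figure D4:**
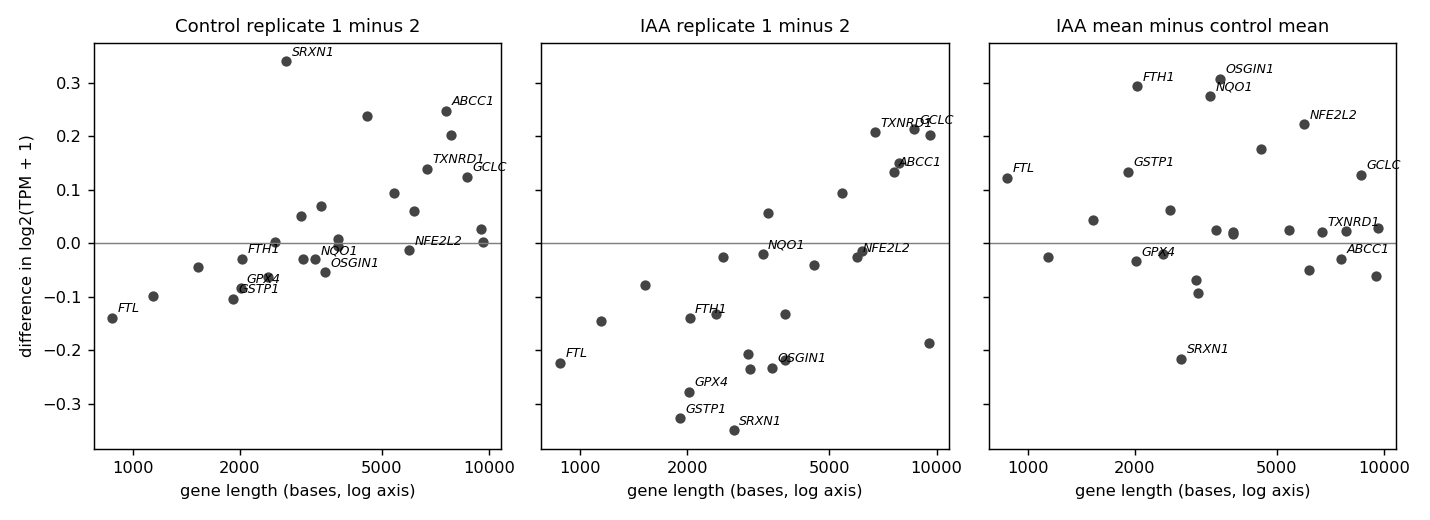
Difference in log2(TPM + 1) against gene length (log axis) for the 26 genes tested, between the control replicates, between the IAA replicates and between the group means. The 10 genes under 3000 bases are all lower in IAA replicate 1 than in IAA replicate 2, while 7 of them are lower and 3, SRXN1 among them, higher in control replicate 1 than in control replicate 2, and the third panel shows no such trend (Spearman correlation -0.05).

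Promoter matches and fold changes were set side by side. The 7 tested genes with a match to TGACNNNGC had a median log2 fold change of 0.02, from -0.07 to 0.13, and for 1 of them both IAA values exceeded both control values. The 12 tested genes with an entry and no match had a median of 0.07, from -0.22 to 0.31, and this held for 4 of them, against 11.8% of all genes tested. The difference between these groups of genes was not tested.

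A second chosen list held 98 other genes of the NRF2 pathway and of thiol redox metabolism, and does not cover all of either. Among them were small MAF and BACH factors, other peroxiredoxins, glutathione transferases, superoxide dismutases and the cystine transporter. Of the 93 found on a single row, 83 were tested, and 0 passed the adjusted threshold. Their median log2 fold change was -0.01, with 41 positive and 42 negative. In both IAA libraries 12 lay above and 16 below both controls, against 11.8% and 17.7% of all genes tested. At an unadjusted p under 0.05 there were 1 higher and 5 lower, against 1.54% and 2.61%. The higher gene was GSTA4, an alpha class glutathione transferase that conjugates lipid aldehydes, at 3.29 and 3.08 TPM in controls versus 4.99 and 4.66 TPM with IAA. Its log2 fold change was 0.48 (SE 0.15, limma adjusted p = 0.999). CAT, catalase, followed at 80.8 and 79.4 TPM against 92.3 and 87.7 TPM, and TRIM16L at 6.87 and 8.23 TPM against 9.08 and 9.37 TPM, both without overlap.

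On the lower side were SESN2, CHAC1 and SLC3A2, followed by MTHFD2 and SLC7A11, and none of these 5 passed after adjustment. SESN2, a sestrin, was at 31.0 and 28.1 TPM in controls versus 18.9 and 24.0 TPM with IAA, a log2 fold change of -0.46 (SE 0.13, limma adjusted p = 0.981). CHAC1, which degrades glutathione, was at 31.4 and 28.3 TPM against 12.4 and 22.9 TPM. Its log2 fold change was -0.78 (SE 0.26, limma adjusted p = 0.999), the lowest of the second list. SLC3A2, the heavy chain of the cystine transporter, was at 162 and 139 TPM against 114 and 130.1 TPM. SLC7A11, its light chain, which imports the cystine used for glutathione, was at 45.6 and 38.0 TPM against 35.8 and 30.7 TPM, a log2 fold change of -0.32 (SE 0.12, limma adjusted p = 0.999). In these 4 genes, and in MTHFD2 at 291.5 and 269.7 TPM against 241.3 and 249.6 TPM, both IAA libraries lay below both controls. SQSTM1, which binds KEAP1, was at 189 and 184 TPM against 181 and 200.2 TPM, with overlap. MTHFD2, SLC7A11 and SQSTM1 were named after their values were seen.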

How the data were processed

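Poly-A RNA of 2 control and 2 IAA samples was sequenced as paired reads of 150 nt, per the labels' protocols. The authors deposited TPM values and gene lengths for 34826 genes. The submitters' processing notes list DESeq2 1.20.0, featureCounts 1.5.2 and 2 build names, GRCh38.p12 and hg38, but not what each did. The sources used here give neither the aligner nor the strand setting. Coordinates are those of GENCODE 29 (GRCh38).

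Under R 4.3.3, limma 3.58.1 compared IAA with control by its trended moderated test of log2(TPM + 1). Genes entered when 2 or more libraries reached 1 TPM, which 17896 did. P-values are two-sided and Benjamini-Hochberg adjusted over all genes tested, with a threshold of 0.05. They measure the spread between these samples only. An exact permutation test of 2 against 2 libraries has 0.333 as its smallest p and was not run. Reads were recovered by multiplying TPM by gene length and dividing by the value of 1 read, and 100% came out whole (tolerance 1e-06). Read intervals are 95% exact Poisson. The fit was checked on simulated reads, with the same spread beyond counting error set for every gene and no length trend between replicates. These libraries differ from that setting, so the check does not show how the fit performs on them.

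The genes and lists were chosen with earlier results of these data known. Log2 fold changes with adjusted p-values are given for NFE2L2, KEAP1 and NQO1 and for the 5 further genes with the smallest p in each direction. For the second list the 3 with the smallest p in each direction are named. Deviations of samples with the same number from their group means had a Pearson correlation of -0.07 over all genes tested, and the labels do not say what the number marks. Alternatives covered pseudocount, filter, scaling, limma voom on the reads, protein-coding genes alone, a replicate block, gene length and leaving out each library.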

Additional observations from a re-analysis of the deposited data

How the results depend on the processing

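Over all genes, 0 were higher and 0 lower under pseudocounts of 0.1 and 5, no filter, median-of-ratios scaling, a replicate block and removal of the length trend. A mean of at least 5 TPM gave 1 higher gene, voom gave 1 higher, and protein-coding genes alone gave 12 higher and 25 lower. None of the 30 genes was among these calls. With each library left out in turn, between 0 and 534 genes were higher, between 0 and 424 lower, and 0 to 2 of the 30 genes higher. The 2 were FTH1 and GSTP1, without IAA replicate 1. With the replicate block the values of NQO1, FTH1 and NFE2L2 stayed at 0.28, 0.29 and 0.22 (limma adjusted p from 0.921 to 0.941) and 0 of the 30 genes passed. Leaving out a library moved KEAP1 from -0.088 to 0.13, GSTP1 from -0.030 to 0.30, TALDO1 from -0.21 to 0.024, PGD from -0.17 to 0.035 and TKT from -0.15 to 0.033. Each of these 5 turned in sign under 1 of 14 alternatives, and the cause was not tested. Across the same 14, NQO1 ranged from 0.26 to 0.29, NFE2L2 from 0.21 to 0.24, FTH1 from 0.22 to 0.36 and OSGIN1 from 0.19 to 0.42. Median-of-ratios scaling moved the share of positive fold changes over all genes from 44.5% to 49.7%, with 17 of the 26 tested genes positive in both. The 4 genes under 1 TPM are limited by their read counts.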
